A study of Homo sapiens with 16 samples.

Results

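The collagen genes were the 44 genes, of 32285 counted, whose mouse symbol consists of Col, a number, the letter a and a number. Each gene and their sum were followed in the malignant cells of the mouse mammary tumors T22 and T127. They were set beside the i_CAF, my_CAF and Endo.cells labels of the same pools. The long-term pools held both tumors, and which tumor the i_CAF, my_CAF and Endo.cells cells there came from is not given. In the long-term pools 33 of the 44 genes reached 10 unique molecular identifiers (UMIs) per 1000000 UMIs (CPM) in at least 1 cell label and 11 stayed below it in every label, with highest values of 0.0944 to 8.09 CPM.

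Collagens are extracellular proteins whose chains wind around each other into a helix, as homotrimers or as heterotrimers of chains from different genes. Fibrillar collagens such as types I, III and V form the fibers of connective tissue, network collagens such as type IV form the sheet of basement membranes, and beaded filaments of type VI lie around cells. FACIT collagens such as type IX decorate fibrils, type VII anchors epithelial basement membranes to the tissue under them, type XVII spans the membrane of basal epithelial cells, and the multiplexins, types XV and XVIII, belong to basement membrane zones. In mammary tumors fibroblasts are known as the main source of fibrillar collagen.

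LPA1-T22 (T22) and LPA1-T127 (T127) are transplantable tumors, each a single line, grown from chunks of 25 mm3 in the mammary fat pad of female FVB mice of 6 weeks. In the long-term experiment, mice that carried T22 alone, T127 alone or T22 placed 14 days before T127 in the same animal received olaparib, an inhibitor of poly(ADP-ribose) polymerase, by mouth at 50 mg/kg daily or vehicle for 20 days. In the short-term experiments tumors of T22 or of T127 alone received olaparib at the same dose or vehicle for 4 or 8 days. Mice are described as assigned to treatment 14 days after implantation for T22 and 10 days for T127, and elsewhere as treated after 14 days. Hashtagged tumors were mixed into 8 long-term pools, 4 short-term T22 pools and 4 short-term T127 pools, and since the tumor of origin of each cell is not given in the files used here, olaparib and vehicle cells were analysed together and neither treatment nor transplant setting was compared. The labels name the organism as human, whereas the animals, the gene symbols and the genome build (GRCm38) are mouse.

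Each cell carried a cluster name given by the authors. Malign_0 and Malign_1 were malignant cells of T127, Malign_2 and Malign_3 were malignant cells of T22, i_CAF and my_CAF were named as inflammatory and myofibroblastic cancer-associated fibroblasts, and Endo.cells were endothelial cells. These names were made from the genes of the same cells, collagen genes among them, so every difference between labels is a description and no p-value was computed. The labels do not say which tumors each pool held, so the pools of an experiment were not taken as independent tumors, and what makes up their spread is not known. After the deepest copy of each barcode shared between long-term pools had been kept, 25723 of 30845 long-term cells remained, beside 15094 short-term T22 and 8007 short-term T127 cells. In pools 1 and 2, 45.9% and 45.5% of the barcodes had a deeper copy elsewhere and were dropped, so the long-term ratios of summed collagen, the summed levels and the counts of genes called were also computed in pools 4 to 8. Pools held 32298013 to 55600377 UMIs, and collagen genes took 533063, 829622 and 451917 UMIs in the 3 experiments. Intervals given here are 95% intervals and cover counting error only. UMIs count a molecule once whatever its length, with intronic reads included, and the capture of different transcripts may differ, so a CPM is compared for the same gene between labels.

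The labels were checked against markers. In the long-term pools i_CAF had all 5 fibroblast markers at 10 CPM or more, among them Dcn at 6544 CPM, and Endo.cells had all 5 endothelial markers. In contrast, my_CAF had all 7 myofibroblast and mural cell markers, summing to 16064 CPM, but 3 of 5 fibroblast markers, with Dcn at 124 CPM, Pdgfra at 4.04 CPM and Pdpn without a UMI, and the mural gene Rgs5 was at 4203 CPM. Of the fibroblast list Pdgfrb went the other way, at 656 CPM in my_CAF and 100.5 CPM in i_CAF. The markers other than Pdgfrb thus go against fibroblasts as the identity of my_CAF, which is used below as a label only. In both T127 labels 2 of 5 fibroblast markers reached 10 CPM, namely Dcn, at 4305 CPM in Malign_0 and at 4324 CPM in Malign_1, and Pdgfra, and 2 of 6 epithelial markers reached 10 CPM. Malign_2 had all 6 epithelial markers and 3 of 7 myofibroblast and mural markers, Acta2 at 7275 CPM, Tagln at 827 CPM and Myh11 at 81.3 CPM, and Malign_3 had 5 of 6 epithelial and 3 of 7 myofibroblast and mural markers. Fibroblast markers reached 10 CPM for 2 of 5 in these T22 labels too, Dcn at 772 CPM and Pdpn at 208 CPM in Malign_2, and at 55.4 and 19.4 CPM in Malign_3. B.cells were at 81.1 CPM of Dcn and 32.9 CPM of Acta2. Malign_3, at 55.4 and 22.7 CPM, was thus above B.cells for neither of these 2 counted markers. The leukocyte marker Ptprc was at 3.21 to 8.87 CPM in the 4 malignant labels. Lymphocyte labels, which are not known to make collagens, were taken as the background level, although they may hold RNA or cells of other types. Some were also shallower, with a median of 2082 UMIs in long-term B.cells against 15056 to 20459.5 in malignant labels. The same free RNA per cell would give such cells a higher CPM. A malignant level at or below that of lymphocytes is thus not told apart from background, and is not shown to be background. B.cells carried 2795 CPM of epithelial markers in short-term T127 (0 to 6793 CPM by pool) and 745 CPM in short-term T22 (38.1 to 1853 CPM by pool). In short-term T22 summed collagen reached 848 CPM in Tgd of pool 2 and 400.1 CPM in Tprf-MKI67 of pool 4. Over all lymphocytes summed collagen was 132 CPM in the long-term pools (47.3 to 183 by pool), 164 CPM in short-term T22 and 82.7 CPM in short-term T127.

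Summed collagen was highest in i_CAF, and the pool ranges of i_CAF, my_CAF and Endo.cells all lay above those of the malignant labels. Across the 8 long-term pools, i_CAF held 31264 CPM in the lowest, 35178 CPM at the median and 38051 CPM in the highest pool, and my_CAF held 9075, 16513 and 20260 CPM. Endo.cells held 5359, 7005 and 10050.0 CPM. The pool ranges of my_CAF and Endo.cells overlapped, although my_CAF lay above Endo.cells within each of the 8 pools.

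Among malignant cells, Malign_2 stood apart, with 2333 CPM in the lowest, 2583 CPM at the median and 2750.3 CPM in the highest long-term pool. Malign_0 held 561, 718 and 858 CPM, Malign_1 held 433, 516 and 683 CPM, and Malign_3 held 317, 348 and 453 CPM. The pool ranges of Malign_0 and Malign_1 overlapped each other, although within every pool Malign_0 lay above Malign_1, by 1.21- to 1.44-fold. Those of Malign_1 and Malign_3 overlapped too, and Malign_1 was the higher in each pool but pool 1. Every pool of all 4 labels lay above every pool of the summed lymphocytes. The B.cells label alone was higher, at 277 CPM and up to 380.4 CPM in pool 7, where Malign_3 was at 317 CPM, so Malign_3 was not above each lymphocyte label. Summed collagen in i_CAF was 13.4-fold that in Malign_2 (12.5 to 15.1 by pool), 47.8-fold that in Malign_0 (39.5 to 64.0), 69.1-fold that in Malign_1 (47.6 to 83.3) and 97.0-fold that in Malign_3 (79.5 to 120.1). In Endo.cells it was 2.90-fold the level in Malign_2 (1.95 to 4.31) and 20.9-fold the level in Malign_3 (14.2 to 31.4).

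**Figure D1:**
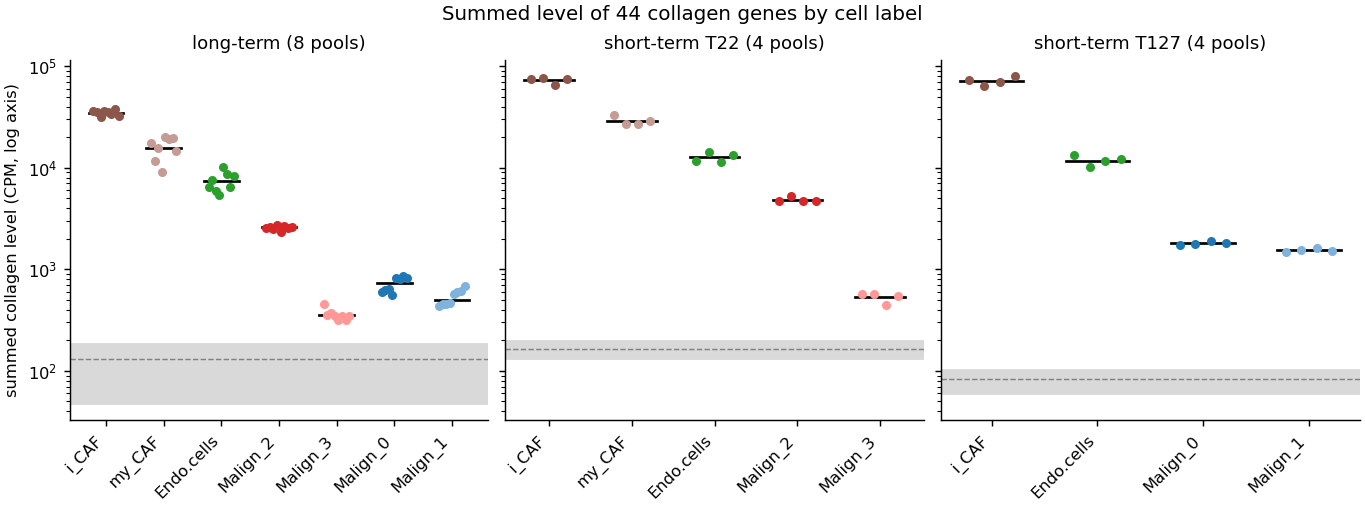
Summed collagen level (CPM, log axis) by cell label in the 3 experiments, where each point is a pool, the black line is the pooled level, and the gray band and dashed line are the pool range and level in lymphocytes. The i_CAF points lie highest in each experiment, Malign_2 lies above the other malignant labels, and Malign_3 comes closest to the lymphocyte band.

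The i_CAF label was highest in both short-term experiments as well. In short-term T22, Malign_2 held 4721, 5264, 4667 and 4715 CPM in pools 1 to 4, Malign_3 held 574, 572, 445 and 546 CPM, and i_CAF held 74673, 77061, 65116 and 74255 CPM. In short-term T127, Malign_0 held 1715, 1791, 1891 and 1808 CPM, Malign_1 held 1476, 1534, 1616 and 1524 CPM, and i_CAF held 73524, 64017, 69393 and 79099 CPM. Every Malign_0 value there was above its Malign_1 counterpart in the same pool, with a ratio of 1.17 (1.16 to 1.19 by pool), and the pool ranges did not overlap. The short-term T127 my_CAF label had 8 cells, under the minimum of 50, and was left out of the ratios.

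The i_CAF cells were few among the captured cells, and malignant cells carried part of the collagen molecules. In the long-term pools i_CAF made up 2.82% of cells and 68.8% of collagen UMIs, and Malign_2 made up 5.26% of cells and 11.4% of collagen UMIs. Malign_0, Malign_1 and Malign_3 added 8.26%, 3.72% and 1.06%, respectively. In short-term T127, where both malignant labels were 31.4% and 29.5% of cells, Malign_0 held 37.5%, Malign_1 27.8% and i_CAF 30.4% of collagen UMIs. Fewer cells of a label in a pool change these shares but not the CPM.

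The labels also differed in the kinds of collagen they held. Fibrillar collagens took 85.8% of collagen UMIs in long-term i_CAF (82.0% to 86.9% by pool), and network collagens took 85.2% in Endo.cells (80.5% to 88.4%). The my_CAF label lay between them, with 43.9% fibrillar and 36.4% network. In Malign_2 network collagens took 46.3% (41.3% to 50.9%) and FACIT collagens 33.4% (27.96% to 37.0%), while in Malign_3 FACIT collagens took 61.6% (51.7% to 67.6%). In T127 the multiplexins led, with 42.6% in Malign_0 (37.4% to 47.8%) and 34.5% in Malign_1 (29.9% to 39.4%), followed by network collagens with 21.8% and 20.9% and beaded filament collagens with 14.6% and 19.7%. Fibrillar collagens took 7.39% to 13.1% in the 4 malignant labels. The short-term pools gave 56.4% network and 21.7% FACIT in Malign_2, 51.9% FACIT in Malign_3, and 49.3% and 43.8% multiplexin in Malign_0 and Malign_1.

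**Figure D2:**
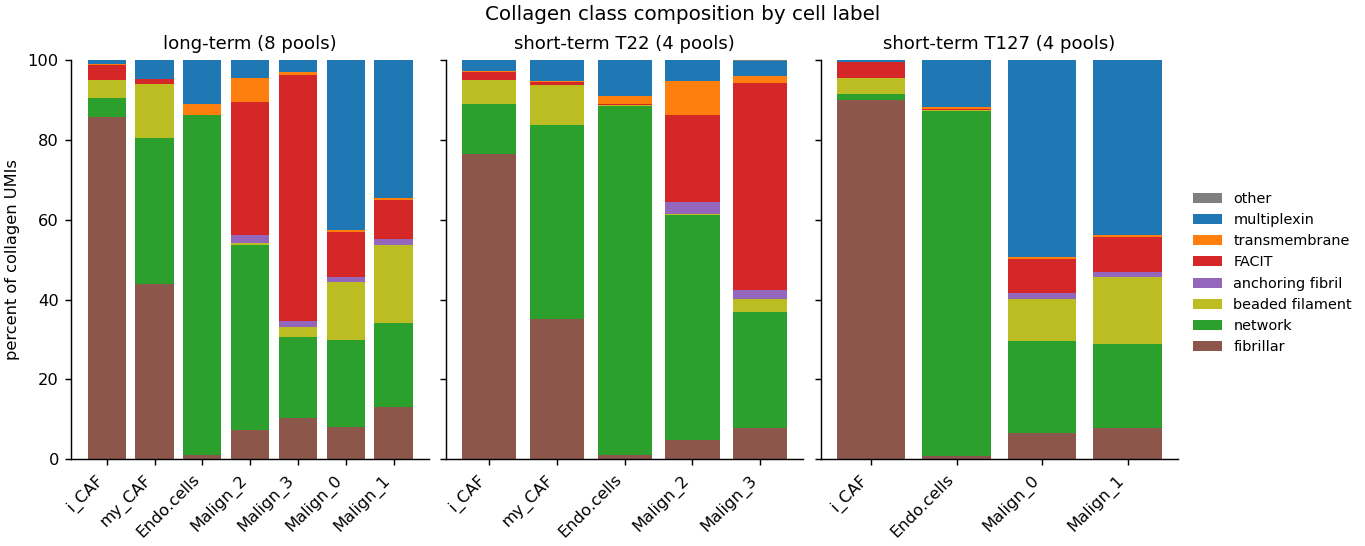
Share of collagen UMIs (percent, stacked bars from 0) taken by each structural class of collagen, by cell label and experiment. Fibrillar collagens fill most of the i_CAF bars, network collagens most of the Endo.cells bars, network and FACIT collagens most of the T22 bars (Malign_2 and Malign_3), and multiplexins the largest part of the T127 bars (Malign_0 and Malign_1).

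Of the 33 genes that reached 10 CPM, 15 were highest in i_CAF, 7 in Malign_2, 6 in my_CAF, 4 in Endo.cells and 1 (Col6a6) in plasmacytoid dendritic cells. The 7 with their highest level in Malign_2 were Col4a5, Col4a6, Col7a1, Col9a1, Col9a2, Col9a3 and Col17a1. Among the genes below 10 CPM in the long-term pools, Col2a1, the chain of cartilage type II collagen, was highest in Malign_0 at 8.09 CPM. It held 22.3, 24.04, 21.5 and 19.9 CPM in the 4 short-term T127 pools of Malign_0, all above its level in lymphocytes of these pools (0.776 CPM). Col4a3 and Col11a2 stayed at or below 1.35 CPM in every long-term label, and Col4a4 reached 13.5 CPM in my_CAF from 10 UMIs.

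Col1a1, Col1a2 and Col3a1, which encode the chains of the main fibers of connective tissue, were the top genes of i_CAF. Col3a1 held 10346 CPM in the lowest, 12850.0 CPM at the median and 14668 CPM in the highest long-term i_CAF pool, and Col1a1 held 4380.1, 5686 and 6521 CPM. In malignant cells Col1a1 was at 3.61 to 10.8 CPM and Col3a1 at 8.22 to 16.5 CPM. Lymphocytes of the same pools were at 14.4 CPM and 24.6 CPM, so these malignant values are not told apart from background. In short-term T127, Col1a1 in Malign_1 held 2.09, 1.79, 6.27 and 1.95 CPM, and pool 3 was also the highest for Col3a1 there, at 8.95 CPM.

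Col1a2, the partner chain of Col1a1, was the exception in T22. In Malign_2 it held 47.0 CPM in the lowest, 63.1 CPM at the median and 134 CPM in the highest long-term pool, against 24.5 CPM in lymphocytes, and 53.4, 66.7, 51.8 and 47.0 CPM in the 4 short-term T22 pools, against 15.7 CPM in lymphocytes. Col1a2 in Malign_3 was at 8.17 CPM and in T127 cells at 6.44 CPM in the long-term pools, below the lymphocyte level. The level in i_CAF was 8913 CPM.

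The type V genes encode chains that regulate fiber diameter. Col5a3 was a gene of T127, with 16.6 CPM in the lowest, 19.7 CPM at the median and 24.6 CPM in the highest long-term Malign_0 pool and 68.0, 74.0, 78.4 and 65.0 CPM in the short-term pools. In Malign_2 it was at 0.765 CPM, below the 2.06 CPM of lymphocytes, and no pool of a T127 label overlapped one of Malign_2. Col5a2 showed the opposite distribution, with 9.16, 17.04 and 25.3 CPM in long-term Malign_2 and 48.7, 52.6, 48.1 and 48.3 CPM in the short-term pools, against 1.09 CPM in Malign_0. Col5a1 was at 9.36 CPM in Malign_0, 5.53 CPM in Malign_2 and 15.04 CPM in Malign_1, and i_CAF held 551 CPM of Col5a1, 1591 CPM of Col5a2 and 227 CPM of Col5a3. The highest Col5a3 level was that of my_CAF, at 630.4 CPM.

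Col11a1, a fibrillar chain of cartilage, was found in T22 and in i_CAF. Long-term Malign_2 held 48.8 CPM in the lowest, 56.6 CPM at the median and 66.6 CPM in the highest pool, while i_CAF held 48.4, 87.0 and 309.9 CPM, a range that contained that of Malign_2. Malign_3 was at 10.6 CPM, and Malign_0 had 6 UMIs in all (0.0989 CPM). In the short-term T22 pools Malign_2 held 89.9, 115, 96.6 and 86.9 CPM and i_CAF 1391 CPM.

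Col4a1 and Col4a2, the common chains of basement membrane, were the top genes of Endo.cells, at 4114 CPM and 2241 CPM in the long-term pools, and were at similar levels in my_CAF, at 3702 CPM and 1854 CPM. In Malign_2, Col4a1 held 757 CPM in the lowest, 801 CPM at the median and 853 CPM in the highest long-term pool, all within the i_CAF range of 613 to 1182 CPM. Col4a1 in Malign_3, Malign_0 and Malign_1 was at 36.3, 52.2 and 38.1 CPM, with no pool near the range of Malign_2 and with pooled levels above the 11.8 CPM of lymphocytes. In the short-term T22 pools Malign_2 held 1717, 1938, 1704 and 1733 CPM of Col4a1 and 767, 836, 711 and 740.4 CPM of Col4a2. There i_CAF was higher, at 5501 CPM of Col4a1, so the match of Malign_2 with i_CAF was seen in the long-term pools only.

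Col4a5 and Col4a6 encode chains of a type IV network of epithelial basement membranes. Col4a5 was present in all malignant labels, with 55.6, 63.5 and 70.6 CPM as the lowest, median and highest long-term pool of Malign_2, while its pooled levels in Malign_0, Malign_1 and Malign_3 were 35.9, 22.4 and 20.3 CPM. All of them were above i_CAF (15.9 CPM) and lymphocytes (1.62 CPM), but the pool ranges of Malign_1, Malign_3 and i_CAF overlapped. Col4a6 was mostly found in T22, with 14.4, 17.4 and 18.6 CPM in Malign_2 and 4.69 CPM in Malign_3, against 0.758 CPM in Malign_0. In the short-term pools Malign_2 held 148, 159.8, 151 and 152 CPM of Col4a5, and Malign_0 held 80.7, 89.0, 94.5 and 90.1 CPM. Col8a1, a network chain known from the vessel wall and the cornea, was on the contrary a gene of T127 and of i_CAF. Malign_0 held 36.1, 39.4 and 48.0 CPM of it, and 86.1, 81.7, 78.9 and 92.5 CPM in the short-term pools, whereas Malign_2 was at 2.68 CPM. Its partner Col8a2 was not detected in long-term Malign_0, where 3 UMIs would amount to 0.0494 CPM, and reached 16.1 CPM in i_CAF.

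Col6a1, Col6a2 and Col6a3, whose chains assemble into type VI filaments, were high in i_CAF and my_CAF. Col6a1 held 642, 832 and 966 CPM as the lowest, median and highest long-term pool of i_CAF and was at 998 CPM in my_CAF. In T127 it held 75.2, 87.7 and 96.2 CPM in Malign_0 and 75.7, 82.6 and 108 CPM in Malign_1, whereas Malign_2 (4.51 CPM) and Malign_3 (5.70 CPM) were near the lymphocyte level of 4.12 CPM. In the short-term T127 pools Malign_0 held 125, 152, 170.3 and 150.2 CPM of Col6a1, each below the 191, 232, 215 and 214 CPM of Malign_1 in the same pool. Col6a2 was at 12.97 CPM in long-term Malign_0 and 11.5 CPM in Malign_1. Col6a3 was at 6.36 CPM and 4.81 CPM there, and at 31.5 CPM and 23.02 CPM in short-term T127.

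Col7a1, the gene of the anchoring fibril, and Col17a1, a component of hemidesmosomes, were both highest in Malign_2 in the long-term pools. Col17a1 held 125, 145 and 170.1 CPM as the lowest, median and highest long-term pool of Malign_2 and 384, 436, 394 and 389 CPM in the short-term pools. Malign_3 was at 2.28 CPM of Col17a1 in the long-term and 7.82 CPM in the short-term T22 pools, where lymphocytes were at 7.28 CPM, so it was not detectable above background in Malign_3 of the latter. Col7a1 held 44.2, 50.8 and 60.7 CPM in long-term Malign_2, against 9.19, 7.42 and 5.32 CPM in long-term Malign_0, Malign_1 and Malign_3. In the short-term pools it held 142, 162, 138 and 136 CPM in Malign_2. Short-term Malign_0, Malign_1 and Malign_3 were at 25.8, 20.0 and 11.6 CPM of Col7a1.

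Col9a1, Col9a2 and Col9a3 encode the chains of type IX collagen, best known from cartilage, and were found in both T22 labels. Col9a3 held 479, 596 and 700.2 CPM as the lowest, median and highest long-term pool of Malign_2 and 118, 158 and 241 CPM in Malign_3. In the short-term T22 pools it held 527, 559.6, 539 and 552 CPM in Malign_2 and 201, 183, 140.3 and 215 CPM in Malign_3, so that no pool range of these labels overlapped. T127 malignant cells were at 1.92 CPM of Col9a3 in the long-term pools, below the 4.77 CPM of lymphocytes there, and i_CAF was at 2.17 CPM. In the short-term T127 pools Col9a3 was at 2.38 CPM in Malign_0 and 1.80 CPM in Malign_1, with no UMI in any lymphocyte label.

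Col9a1 followed the same distribution, with 117, 130.5 and 139 CPM in long-term Malign_2, 17.8, 20.98 and 30.03 CPM in Malign_3, and not a UMI in the short-term T127 malignant cells. Col9a2 was at 31.7 CPM in Malign_2 and 22.6 CPM in Malign_3, with overlapping pool ranges of 25.1 to 37.1 and 14.4 to 31.1 CPM. Of the chondrocyte markers examined (Sox9, Acan, Matn3 and Chad), 1 of 4 reached 10 CPM in long-term Malign_2 and 2 of 4 in Malign_3, with sums of 233 CPM and 470.0 CPM. In both T127 labels 2 of 4 did, with sums of 506 CPM and 801 CPM, although Col9a1 and Col9a3 there were below the lymphocyte level. Sox9 made up most of the sum in all 4 labels, and Acan was at 25.3 and 19.5 CPM in the T127 labels against 0.255 and 0.570 CPM in the T22 labels. Col16a1, another FACIT gene, was shared, with 60.0, 74.9 and 86.1 CPM in Malign_0 and 72.1, 81.2 and 92.9 CPM in Malign_2, ranges that overlapped, and was lower in Malign_3 at 6.02 CPM.

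Col18a1, whose protein is a basement membrane proteoglycan and the source of endostatin, was the top collagen gene of both T127 labels. It held 221, 301 and 410.2 CPM as the lowest, median and highest long-term pool of Malign_0, 138, 189 and 240.4 CPM in Malign_1, 97.5, 113 and 138 CPM in Malign_2, and 10.2 CPM in Malign_3, against 11.9 CPM in lymphocytes. In i_CAF it was at 56.2 CPM, below every pool of Malign_0, Malign_1 and Malign_2, whereas my_CAF (492 CPM) and Endo.cells (354 CPM) were higher. In the short-term T127 pools Malign_0 held 853, 863, 943 and 892 CPM of Col18a1, each above the 642, 663, 719 and 667 CPM of Malign_1. Col15a1, the other multiplexin, was at 471 CPM in Endo.cells and 298 CPM in i_CAF, and at 0.247 CPM in Malign_0 and 1.36 CPM in Malign_2.

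Malignant labels were then compared with i_CAF gene by gene in the long-term pools. A gene was tested when either side reached 10 CPM and was called when the sides were at least 2-fold apart. In Malign_2, 8 of 30 collagen genes tested were called higher than in i_CAF, where 20.0% of all genes tested were, and 17 were called lower, where 23.5% of all genes were. The 8 were Col4a5, Col4a6, Col7a1, Col9a1, Col9a2, Col9a3, Col17a1 and Col18a1, and for all of them the pool ranges of Malign_2 and i_CAF did not overlap, as for 18.3% of all genes, nor did they for any of the 17 lower genes (21.5% of all genes). In Malign_3 the higher genes were 3 of 27 (21.4% of all genes), namely the Col9 genes, and 23 were lower (24.6%). In Malign_0, Col18a1 and Col4a5 were higher, 2 of 24 (15.5%), and 21 were lower (18.7%), whereas in Malign_1 Col18a1 alone was called higher, 1 of 24 (14.3%), and 22 were lower (19%). Many members entered the comparison through their level in i_CAF alone, so these counts lean towards i_CAF.

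The share of members called lower than in i_CAF was 56.7% for Malign_2 and 85.2% to 91.7% for the other malignant labels. The median log2 ratio of the collagen genes tested was -3.93 for Malign_2, -4.14 for Malign_0, -4.24 for Malign_1 and -5.20 for Malign_3, beside medians of all genes tested of 0.05 to 0.14. Against Endo.cells the median was 3.26 in Malign_2, where 11 of 18 genes were called higher (17.8% of all genes) and 5 lower (27.8%), and -0.65 in Malign_0, where 6 of 14 were called higher (15.8%) and 7 lower (24.2%). It was -0.90 in Malign_1 and -1.55 in Malign_3. As 16 members reached 10 CPM in Malign_2 and 8 in Endo.cells, most of the 18 were tested through their level in Malign_2, so this count and median lean towards Malign_2 and are not set against those for i_CAF. Against my_CAF, Malign_2 had 9 of 26 called higher (17.6%) and Malign_3 5 of 23 (18.7%), and Col4a5 was called in all 4 malignant labels, as the 1 of 19 genes called higher in Malign_0 (15.6%) and in Malign_1 (15.6%). Called lower than in my_CAF were 15 of 19 in Malign_0 (19.3%), 17 of 19 in Malign_1 (21.2%), 17 of 26 in Malign_2 (23.9%) and 18 of 23 in Malign_3 (24.9%). With 18 members at 10 CPM or more in my_CAF and 7 to 16 in the malignant labels, these counts lean towards my_CAF.

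The tumors T127 and T22 shared the long-term pools, so their malignant cells could be compared within the same captures. Summed collagen was 637 CPM in T127 and 1686 CPM in T22 malignant cells, a ratio of 0.378 (0.272 to 0.527 by pool). The T22 value pools Malign_2 at 2578 CPM with Malign_3 at 357 CPM, which lay below both T127 labels, so the ratio depends on the mix of these labels. Of 20 collagen genes tested, 6 were at least 2-fold higher in T127, where 19.6% of all genes tested were, and 11 were at least 2-fold higher in T22, where again 19.6% of all genes were. The pool ranges of the tumors did not overlap for any of these 17 genes, which was so for 19.4% and 19.3% of all genes tested, and all 17 were also called in pools 4 to 8 alone. The median log2 ratio of T127 to T22 was -2.17 over the collagen genes tested and 0.02 over all genes tested. Of the 20 genes, 10 reached 10 CPM in T22 alone and 5 in T127 alone, so the counts and the median lean towards T22.

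The 6 genes of T127 were Col18a1, Col6a1, Col6a2, Col8a1, Col5a3 and Col5a1. Col5a3 ranged from 15.9 to 25.99 CPM over the pools in T127 and from 0 to 1.64 CPM in T22, below the 2.06 CPM of lymphocytes. Col6a1 ranged from 75.5 to 91.5 CPM in T127 and from 2.46 to 9.18 CPM in T22, near the 4.12 CPM of lymphocytes. Col6a2 was at 12.4 CPM against 2.24 CPM in T22, again below lymphocytes (2.60 CPM). Above that background on both sides as pooled levels, Col8a1 was 14.0-fold higher in T127 (interval 11.5 to 17.3), Col18a1 3.46-fold (3.33 to 3.60) and Col5a1 3.06-fold (2.58 to 3.65). Col8a1 was at 0 to 10.2 CPM by pool in Malign_2 and 0 to 8.06 CPM in Malign_3. In Endo.cells it was at 7.89 CPM. Malign_3 was at 1.20 CPM of Col5a1 and, below lymphocytes, 10.2 CPM of Col18a1. Against Malign_2 alone (97.5 to 138.4 CPM by pool), Col18a1 overlapped in Malign_1 (137.9 to 240.4) but not in Malign_0. Col5a1 overlapped in Malign_0 (6.72 to 12.8 against 3.62 to 7.42) but not in Malign_1. The 6 genes encode chains of type VI filaments, of minor fibrils, of a vessel wall network and of the multiplexins.

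The 11 genes of T22 were Col9a1, Col9a2, Col9a3, Col11a1, Col17a1, Col7a1, Col4a1, Col4a2, Col4a6, Col1a2 and Col5a2. Col9a3 ranged from 319 to 516 CPM in T22 and from 1.23 to 2.41 CPM in T127, below the 4.77 CPM of lymphocytes. Col17a1 ranged from 69.9 to 94.4 CPM in T22 and from 1.96 to 3.74 CPM in T127, a ratio of 31.8 (28.1 to 36.0). Col4a1 ranged from 433 to 576 CPM against 35.8 to 59.0 CPM, a ratio of 10.6 (10.2 to 10.9). In T127 the levels of Col9a1, Col9a3, Col1a2 and Col5a2 were below those of lymphocytes in the same pools, so no fold is given for them. For several of these genes the T22 level was that of Malign_2, since Malign_3 was at 36.3 CPM of Col4a1, 8.55 CPM of Col4a2, 5.32 CPM of Col7a1 and 2.28 CPM of Col17a1, each below the pooled T127 level, and its Col1a2 and Col5a2 were below those of lymphocytes. Col16a1, Col3a1 and Col4a5 were tested and not called, although the pool ranges of Col4a5 did not overlap, with 24.5 to 37.4 CPM in T127 and 41.4 to 50.9 CPM in T22.

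The short-term experiments, which share no pool with the long-term one, gave 8 genes at least 2-fold higher in T127 (22.1% of all genes tested) and 13 in T22 (20.4%) of 23 collagen genes tested. All 6 and all 11 genes of the long-term comparison were among them, and Col2a1 and Col6a3 on the T127 side and Col12a1 and Col23a1 on the T22 side were added, and of these Col2a1, Col12a1 and Col23a1 are named after their values had been seen, as is Col6a6. Col9a1 and Col11a1 had no UMI in short-term T127 malignant cells, against 210 CPM and 89.4 CPM in T22, so T22 was at least 12295-fold and 5245-fold higher, taking 3 UMIs over the T127 cells as the limit. Here each tumor was captured in pools of its own, and tumor, pool and the day of assignment to treatment cannot be told apart.

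Within T22, the 2 malignant labels were at least 2-fold apart in most of the collagen genes tested, whereas within T127 none of the genes tested was. In the long-term pools 14 of 16 collagen genes tested were at least 2-fold higher in Malign_2 than in Malign_3 (10.8% of all genes tested) and 0 were lower (9.86%), with Col9a2 and Col3a1 not called. All 16 reached 10 CPM in Malign_2 and 7 did in Malign_3, so most entered through Malign_2 and the counts lean towards it. The pool ranges did not overlap for 13 of the 14 (10.1% of all genes, and 8.97% in the other direction). The exception was Col1a1, which was below the lymphocyte level in both labels, so that its call is not told apart from background. The short-term T22 pools gave 16 of 18 higher (11.4%) and 1, Col6a1, lower (10.7%). Col6a1 in short-term Malign_3 held 2.16, 35.9, 3.49 and 6.21 CPM, so that its call rested on pool 2. In the long-term pools Col17a1 was 63.2-fold higher in Malign_2 (45.5 to 90.3), Col4a1 21.98-fold (20.2 to 23.9) and Col9a3 3.67-fold (3.52 to 3.83). The 7 myofibroblast and mural markers summed to 8193 CPM in Malign_2 and 74.3 CPM in Malign_3 of the long-term pools, with 3 of 7 at 10 CPM or more in each label. Acta2, Tagln and Myh11 were higher in Malign_2, whereas Notch3 was at 3.15 CPM there and 27.8 CPM in Malign_3. The epithelial markers summed to 3954 CPM and 8846 CPM. Of this list Epcam, Krt8, Krt18 and Cdh1 were higher in Malign_3, whereas Krt14 and Krt5 went the other way. Krt14 was at 1734 CPM in Malign_2 and 927 CPM in Malign_3, and Krt5 at 916 and 3.10 CPM. The part of these markers in the collagen difference was not tested.

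Between Malign_0 and Malign_1, 0 of 11 collagen genes were called in either direction in the long-term pools, where 0.746% of all genes were called higher in Malign_0 and 1.53% higher in Malign_1. The short-term pools also gave 0 of 13 in either direction (0.0618% and 1.78% of all genes), and the other collagen genes were below 10 CPM in both labels and were not compared. The median log2 ratio of the collagen genes was 0.44 and 0.19, respectively. A threshold of 2-fold does not exclude smaller differences, as seen for Col18a1 and Col6a1 within the short-term pools above.

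Chains that share a helix were compared by the ratio of their UMIs in each label, which sets the same pair of genes side by side across cells. The ratio of Col1a2 to Col1a1 was 1.62 in i_CAF, 1.12 in my_CAF and 1.70 in lymphocytes of the long-term pools, and 7.06 (6.18 to 8.08) in Malign_2, with a pool range of 3.18 to 53.3. In the short-term T22 pools it was 10.2 (7.46 to 13.4 by pool) in Malign_2, 1.16 in i_CAF and 0.993 in lymphocytes. The Malign_2 ratio lay above every i_CAF and my_CAF pool in both experiments, while the highest lymphocyte pool of the long-term experiment, at 3.33, exceeded the lowest Malign_2 pool. Col1a1 in Malign_2 was itself not above the lymphocyte level, so the ratio there sets Col1a2 over a level not told apart from background.

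In contrast, the ratio of Col4a1 to Col4a2, neighbouring genes with a shared promoter region, spanned a narrower range, at 2.56 in Malign_2, 2.30 in i_CAF, 2.00 in my_CAF, 1.84 in Endo.cells and 1.89 in Malign_0, with 4.24 (3.51 to 5.16) in Malign_3, where Col4a2 was near the lymphocyte level. The ratio of Col5a3 to Col5a2 was 0.143 in i_CAF and 0.783 in my_CAF. In malignant labels 1 of these chains was below the lymphocyte level, Col5a2 in T127 and Col5a3 in Malign_2, so their ratios are not read as levels of both chains. The ratio of Col6a1 to Col6a2 was 6.70 in Malign_0 and 7.18 in Malign_1, against 1.31 in i_CAF and 1.25 in my_CAF, and its highest i_CAF pool was at 1.37. That of Col9a3 to Col9a1 was 4.67 in Malign_2 and 7.29 in Malign_3, with overlapping pool ranges of 3.44 to 5.54 and 4.57 to 11.5. Col4a5 exceeded its partner Col4a6 by 3.76-fold in Malign_2 and 47.4-fold in Malign_0.

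**Figure D3:**
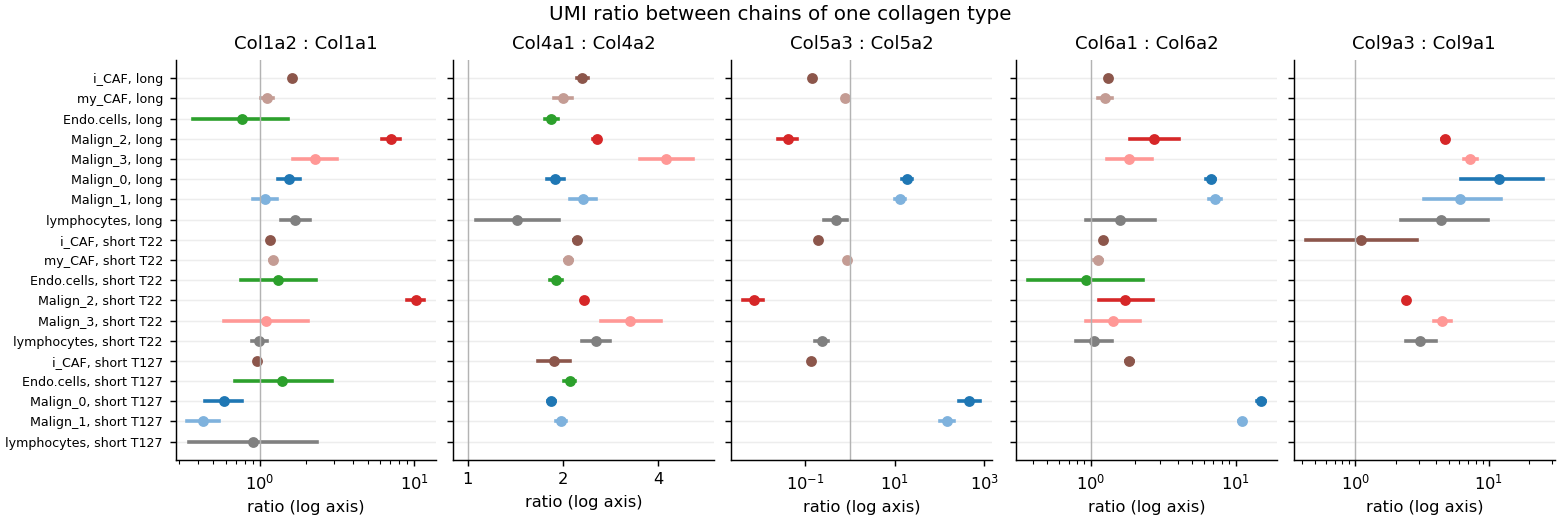
Ratio of UMIs of partner collagen chains (log axis) by cell label and experiment, with 95% counting intervals, shown where both chains had at least 10 UMIs. The Col1a2 to Col1a1 ratio of Malign_2 and the Col6a1 to Col6a2 ratios of Malign_0 and Malign_1 lie above those of i_CAF, and the Col5a3 to Col5a2 ratios of malignant labels have 1 chain at the lymphocyte level.

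Short-term and long-term cells of the same label were also set side by side, a comparison chosen after the values had been seen. In Malign_0, 10 of 13 genes tested were at least 2-fold higher in the short-term pools (20.9% of all genes), in Malign_1 11 of 14 (21.5%), in Malign_2 11 of 19 (13.5%) and in Malign_3 5 of 12 (17.9%), which became 8 without short-term T22 pool 3. More members reached 10 CPM in the short-term than in the long-term pools, 13 against 9 in Malign_0 and 12 against 7 in Malign_3, so members entered through the short-term side and these counts and medians lean towards it. In the other direction Malign_0 had 0 (2.69% of all genes), Malign_1 had 1 (2.70%), Malign_2 had 1 (1.27%) and Malign_3 had 0 (1.64%). The gene was Col3a1 in both labels, at levels not told apart from background. The median log2 ratio was 1.34, 1.56, 1.14 and 0.90 over the collagen genes, beside 0.36, 0.34, 0.31 and 0.31 over all genes tested. Col18a1 in Malign_0 ranged from 221 to 410.2 CPM over the long-term and from 853 to 943 CPM over the short-term pools, and Col4a1 in Malign_2 from 757 to 853 CPM and from 1704 to 1938 CPM. Col9a3 in Malign_2 went the other way within 2-fold, at 609 CPM in the long-term and 544 CPM in the short-term pools, with overlapping ranges.

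The i_CAF label differed between the experiments too. In i_CAF, 18 of 27 collagen genes were at least 2-fold higher in short-term T22 (10.9% of all genes) and 10 of 27 in short-term T127 (7.97%), of which 6 had pool ranges that did not overlap (4.86% of all genes). In the other direction 1 (5.40%) and 0 (5.51%, or 2.99% with pools not overlapping) were called. Col11a1 was at 1391 CPM in short-term T22 i_CAF against 103 CPM in the long-term pools, and Col4a1 at 5501 CPM against 807 CPM, whereas in short-term T127 i_CAF they were at 73.2 CPM and 451 CPM. Markers of other cell types moved too, with the 7 myofibroblast and mural markers summing to 583 CPM in long-term, 1276 CPM in short-term T22 and 756 CPM in short-term T127 i_CAF (275 to 1047, 1037 to 1387 and 305 to 1150.4 CPM by pool), of which 3, 4 and 4 reached 10 CPM. The 5 endothelial markers summed to 62.9, 152 and 45.2 CPM, and the fibroblast marker Dcn was at 6544, 4274 and 5642 CPM. Their part in the collagen values was not tested. Length of treatment, time since transplantation, transplant setting, pool and depth all changed together between the experiments and cannot be told apart. For i_CAF the tumor changed with them, since the short-term pools held T22 or T127 alone and the long-term pools held both. The median UMIs per cell of Malign_0 were 19775 in the long-term and 36205 in the short-term pools.

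The i_CAF and my_CAF labels differed by kind of collagen. Of 25 genes tested, 13 were at least 2-fold higher in long-term i_CAF (15.3% of all genes) and 6 in my_CAF (14.7%), and as 24 members reached 10 CPM in i_CAF and 18 in my_CAF, these counts lean towards i_CAF. Those higher in i_CAF included the fiber genes Col1a1 (5517 against 1208 CPM) and Col3a1 (12802 against 2581 CPM), and those higher in my_CAF were Col4a1, Col4a2, Col4a4, Col5a3, Col6a3 and Col18a1.

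The genes that make, trim, link and bind collagens were given by a list of 43, of which 22 were tested between T127 and T22 in the long-term pools. Of these, 6 were at least 2-fold higher in T127 (19.6% of all genes) and 5 in T22 (19.6%), where the list's shares were 27.3% and 22.7%. The largest ratios towards T127 were those of the enhancers of propeptide removal Pcolce2, at 197 against 1.96 CPM, and Pcolce, at 366 against 7.20 CPM. The lysyl oxidase gene Loxl3, whose family cross-links fibers, was at 59.6 against 8.04 CPM, and P4ha1, a prolyl hydroxylase subunit, at 172 against 43.2 CPM. Towards T22 lay P3h2, a prolyl hydroxylase known to act on type IV collagen, at 17.1 against 0.549 CPM, the propeptidase gene Adamts2 at 10.97 against 0.309 CPM, Fkbp10, a collagen chaperone of the endoplasmic reticulum, at 10.53 against 0.499 CPM, and the collagen receptor kinase Ddr1 at 46.2 against 16.4 CPM. These 8 genes were picked as the largest ratios of the list, and their pool ranges did not overlap between the tumors. Of all genes tested, 19.4% and 19.3% were called towards T127 and T22 without overlap. The median log2 ratio of the list was 0.03 in the long-term and -0.25 in the short-term comparison, where 8 of 32 were higher in T127 (22.1% of all genes) and 10 in T22 (20.4%).

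Collagen UMIs were also counted per cell. With every cell thinned to 3000 UMIs, a Malign_2 cell held a median of 7 collagen UMIs in the long-term pools, and the top 10% of cells held 22.5% of the label's collagen UMIs, as did the top 10% of i_CAF cells, where the median was 95. Malign_0 cells held a median of 2, and Malign_1 and Malign_3 cells a median of 1, and the top 10% of cells held 29.9% in Malign_0, 36.5% in Malign_1 and 36.8% in Malign_3. Counting noise raises this share more at a low mean, and the means were 2.18, 1.47 and 1.09 UMIs per thinned cell, against 7.99 in Malign_2. Whether collagen was held by a part of the cells was not tested. At least 1 collagen UMI was found in 98.4% of thinned Malign_2 cells (97.5% to 99.0%), 79.9% of Malign_0, 66.1% of Malign_1 and 60.2% of Malign_3 cells. In B cells it was found in 40.9% (26.3% to 56.8%) of the 44 cells deep enough to be thinned, the other 265 having fewer UMIs, and the median depth was 2082 UMIs in B cells and 15056 to 20459.5 UMIs in malignant cells before thinning. Unthinned shares were 98.8% for Malign_0, 96.9% for Malign_1, 99.9% for Malign_2 and 93.7% for Malign_3.

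By gene, Col4a1 was found in 85.3% of thinned Malign_2 cells and Col9a3 in 78.0%, against 9.09% and 0 of 44 thinned B cells, a count that allows a share of up to 8.04% by its exact 95% interval. Col9a3 was found in 33.2% of Malign_3 cells, whereas Col4a1 was found in 7.17% of them. Col18a1 was found in 50.0% of Malign_0 and 32.5% of Malign_1 cells. Col1a1 was found in 1.33% of Malign_2 and Col1a2 in 12.6%, against 11.4% and 15.9% of thinned B cells, so the share of cells alone would not tell Col1a2 in Malign_2 from background, and the statement on Col1a2 rests on its CPM.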

How the data were processed

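Single-cell RNA libraries had been aligned and counted by the authors with Cell Ranger 6.0.0 (per the submitters' processing notes) on GRCm38 and doublets had been removed with Scrublet and were not called again. The deposited matrices hold raw UMI counts of each gene in each cell with the authors' cluster names. Tables of normalized and scaled values of fewer genes were not used. Of barcodes shared between long-term pools, the deepest copy was kept.

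UMIs were summed per label, pool and experiment and divided by all UMIs of those cells, times 1000000 (CPM). A gene was tested when 1 side reached 10 CPM and called at 2-fold or more. Log2 ratios used a pseudocount of 1 CPM. Labels needed 50 cells. Poisson, conditional binomial and Clopper-Pearson 95% intervals were exact. Cells were thinned to 3000 UMIs for shares. With pools that are not biological replicates, no p-value was computed, and pool ranges stand for the spread. The tools were numpy 2.4.6 and pandas 2.3.3 for sums, scipy 1.17.1 for intervals and matplotlib 3.10.9 for plots, in Python 3.11.15, and the scripts were tested on simulated data.

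The members and gene lists were chosen with earlier results of these data known. Named by rule were the 3 collagen genes highest in each of the 7 labels, those of at least 10 CPM highest in a malignant label, the 6 with the largest log2 ratio in each direction between the tumors, the partner chains of heterotrimers, and the 8 processing genes with the largest ratio. Other genes were named after their values had been seen. No sequences were printed, since the mouse genome was not used here.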

Additional observations from a re-analysis of the deposited data

Results flagged for a closer look

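In 16 groups of 4 to 8 pools, the highest or lowest pool of summed collagen was set against Dixon's 95% value, which chance passes in about 1 of 20 groups, and 2 pools passed it. Malign_3 had 453 CPM in its highest long-term pool, pool 1, apart from the other 7. Malign_2 had 5264 CPM in its highest short-term T22 pool, pool 2, apart from the other 3. In long-term pool 1, 45.9% of barcodes had been dropped as shallower copies, and the part of this in its value was not tested.

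Collagen genes were also found in leukocyte labels outside the comparisons, at 10 CPM or more, at least 5-fold over lymphocytes and above them in every pool. Col14a1 was at 21.1 CPM in CD16-CDKN1C, 18.2 in Macro-M1, 18.1 in Macro-M2, 27.8 in Macro-MKI67 and 24.1 in Macro-others of the long-term pools, against 1.41 CPM in lymphocytes. In short-term T22 Col14a1 was at 33.0, 35.5, 38.1, 31.2 and 48.9 CPM in the same labels, against 0.611 CPM, and at 10.6 CPM in CD14-PF4. In short-term T127 Col14a1 was at 17.5 CPM in CD16-CDKN1C, 14.97 in Macro-M2, 22.05 in Macro-MKI67 and 17.97 in Macro-others, with no UMI in lymphocytes.

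In plasmacytoid dendritic cells (pDC), Col6a6 was at 45.2 CPM and Col17a1 at 63.5 CPM in the long-term pools, and at 151 CPM and 106 CPM in short-term T127. Col27a1 was at 11.8 CPM in Macro-M1 and 13.2 CPM in Macro-others of short-term T22, against 0.558 CPM. CD14-PF4 of short-term T22, a label of 66 cells, held 13.2 CPM of Col4a5 (5.51 to 33.5 by pool), 74.0 CPM of Col9a3 (13.4 to 154) and 30.4 CPM of Col18a1 (13.6 to 73.7), and its summed collagen was 2661 CPM in pool 3 and 142 to 592 CPM in the other 3 pools.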

How the results depend on the processing

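No paired analysis was possible because the results come from no test, and pools were set side by side only as ratios within each pool. Only the 24 log2 ratios of summed collagen were checked for direction, and none reversed under any alternative run. The ratios of Malign_0 to Malign_1 and of partner chains were not run again. The log2 ratio of summed collagen of Malign_3 to i_CAF in the long-term pools moved from -6.60 to -6.84 with the B cell level subtracted. In short-term T22 it moved from -7.07 to -7.17 as a median over pools and to -7.39 with the B cell level subtracted, that of Malign_3 to my_CAF from -5.73 to -5.91 as a mean of per-cell CPM and to -6.05 with the B cell level subtracted, and that of Malign_3 to Endo.cells from -4.56 to -4.88 with the B cell level subtracted. The B.cells label of short-term T22 had 38 cells, under the minimum of 50, so the values with it subtracted rest on few cells. Malign_2 to i_CAF in short-term T22 moved from -3.90 to -3.75 without the top 5% of cells by UMIs and to -3.81 as a mean of per-cell CPM. With a minimum of 50 CPM, T127 had 2 genes higher and T22 5 in the long-term pools, and 4 and 8 in the short-term pools. The 2 genes higher in Malign_0 than in i_CAF became 1 without all copies of shared barcodes, 1 at a fold of 4, 6 at a minimum of 1 CPM and 1 at 50 CPM. The 1 gene of Malign_1 became 0 at a fold of 4 and 4 at 1 CPM, and the 3 of Malign_3 became 5 at 1 CPM and 1 at 50 CPM. Those at another minimum or fold follow from how many genes are tested or from the higher fold, and the cause of the change without all copies was not tested. Without thinning, the shares of cells with a collagen UMI were 98.8%, 96.9%, 99.9% and 93.7% for Malign_0 to Malign_3 in the long-term pools, 100% and 98.2% for Malign_2 and Malign_3 in short-term T22, and 100% and 99.9% for Malign_0 and Malign_1 in short-term T127. Leaving out each pool in turn gave log2 ratios of T127 to T22 of -1.48 to -1.32 in the long-term pools. Pools 4 to 8 alone, chosen after seeing the data, moved none of the 13 ratios by more than 1 SD of the pools and none of the 14 counts by more than 1.5 times. Of the counts of genes higher in short-term pools, those of Malign_0, Malign_1, Malign_2 and Malign_3 became 1, 2, 1 and 0 at a fold of 4, those of Malign_0, Malign_2 and Malign_3 became 6, 7 and 0 at 50 CPM, and the 5 of Malign_3 became 9 at a fold of 1.5, 10 at 1 CPM and 8 without short-term T22 replicate 3.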

Other observations

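Among the 8 long-term pools, Col18a1 in T127 and Col9a3 in T22 split by pool number. Col18a1 in Malign_0 held 221, 240.2, 257 and 224 CPM in pools 1 to 4 and 353, 345, 410.2 and 368 CPM in pools 5 to 8, and in Malign_1 it held 138 to 179 CPM and 199 to 240.4 CPM, respectively. Col9a3 in Malign_2 went the other way, with 677, 661, 668 and 700.2 CPM in pools 1 to 4 and 501, 532, 524 and 479 CPM in pools 5 to 8, as it did in Malign_3, with 170.0 to 241 CPM and 118 to 146 CPM. Summed collagen of Malign_0 and Malign_1 was lower in pools 1 to 4 as well, with 561 to 638 CPM against 797 to 858 CPM in Malign_0. Summed collagen of some leukocyte labels split the same way, with 46.5 to 95.6 CPM against 197 to 237 CPM in CD4_Tcm-TCF7, 35.9 to 47.4 CPM against 76.4 to 112 CPM in NK.cells, 64.3 to 91.6 CPM against 135 to 155 CPM in CD16-CDKN1C and 62.8 to 75.9 CPM against 103 to 125 CPM in Macro-M2, so the background level differed between these pools too. In contrast, Col4a1 in Malign_2 and Col6a1 in Malign_0 overlapped between these pools. The pools were set apart after their values had been seen, the labels used here do not say how tumors were allotted to them, and what differs between them was not tested.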
